A study of Mus musculus with 15 samples.

Results

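Of the 15 RNA-seq libraries of the study, 6 came from differentiated mouse embryonic stem cells sorted for Endoglin protein (ENG+), in fractions that the labels call HEI, and they form 3 same-numbered pairs. In each pair 1 library came from cells with an active reporter (ENG+FDG+) and the other from cells without one (ENG+FDG-). All 6 carry the -8/P reporter, in which the Endoglin (Eng) promoter and the enhancer 8 kb upstream of the gene drive the reporter. FDG is a substrate that becomes fluorescent when beta-galactosidase, the reporter enzyme, cleaves it. Both fractions thus share the line, the reporter and the gate on Endoglin, and differ in reporter activity. The third HEI fraction of the line, ENG-FDG+ (3 libraries), has an active reporter without surface Endoglin. The labels give neither the day of differentiation nor the number of clones of the line, and do not say that replicates were separate cultures; p-values therefore speak of the spread among these libraries, which may be technical.

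Endoglin is a co-receptor for TGF-beta family ligands, found on endothelial cells and on early blood-forming cells. Haemogenic endothelium is the endothelium from which blood progenitors bud, a step that needs the transcription factor RUNX1. As endothelial cells enter this transition they take on blood genes and give up junction proteins such as VE-cadherin (Cdh5). According to the series' design text, the -8 kb enhancer with the promoter marked TIE2+, c-KIT+ and CD41- haemogenic cells. The question put to these libraries is which transcripts accompany reporter activity among cells that already carry Endoglin.

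The sequence just upstream of Eng is shown because this promoter is an element of the reporter; the exact fragment in the construct is not given in the sources used here. It is the 250 bases before the annotated start at chr2:32646345-32646594 (GRCm38.p6, plus strand, RefSeq), printed 5′ to 3′, with matches to the ETS core GGAA on either strand in capitals.
Eng promoter: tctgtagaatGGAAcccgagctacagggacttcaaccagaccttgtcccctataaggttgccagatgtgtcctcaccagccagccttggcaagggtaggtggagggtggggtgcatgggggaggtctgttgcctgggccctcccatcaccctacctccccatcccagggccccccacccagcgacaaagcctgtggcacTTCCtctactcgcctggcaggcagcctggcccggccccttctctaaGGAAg
The window holds 3 such matches, and 54.8% of 27025 promoter windows of this length hold at least as many. GATA was not found in it on either strand (54.1% of promoters have a match), and the E-box CANNTG was found once (66.0% have at least 1). These are letter matches only.

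The 6 libraries held 9673396 to 16337785 counts each, with reads in 15469 to 15996 genes. The pair of replicate 1 stood apart from the other pairs. Its totals were 15248408 and 16337785 where no other exceeded 11467820, the share of ribosomal precursor RNA (Rn45s) was 1.40% and 1.86% against 0.524% to 0.640%, and cytosolic ribosomal protein mRNAs took 6.61% and 7.81% against 2.58% to 2.96%. Across genes the log2 levels of replicates 2 and 3 correlated at 0.990 in either fraction, and those of replicates 1 and 2 at 0.898 (FDG+) and 0.911 (FDG-). Replicates 2 and 3 still differed by more than counting noise (chi-square per degree of freedom 3.63 and 5.79). Results are therefore given over the 3 pairs and, chosen after seeing the data, for replicates 2 and 3 alone.

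The cells matched their Endoglin label and expressed an endothelial programme. Eng (chr2:32646595-32682669, plus strand, GRCm38), the gene of the sort marker and of the reporter's elements, stood at 889, 183 and 190 CPM (counts at a common library size, scaled between libraries) in FDG+ replicates 1 to 3 and at 941, 186 and 220 CPM in the FDG- ones. Every ENG+ library was above the ENG-FDG+ library of its own replicate, which held 160, 40.5 and 46.1 CPM. Between the ENG+ fractions the difference in Eng was -0.11 ± 0.10 log2 (SE), with a 95% interval of -0.34 to 0.12 and an adjusted p of 1 (edgeR). No higher Eng RNA was detected in cells with an active Eng reporter. The interval's upper end bounds the rise, with a spread taken from all 9 HEI libraries. Eng overlaps Fpgs on the opposite strand, and no strand setting is given for the counts. The reporter's own RNA was not analysed here, so the FDG label has no check of this kind. All 7 endothelial markers were tested, and their summed level was 4208 to 4760 CPM in FDG+ and 4056 to 5520 CPM in FDG- libraries. Among 6 haematopoietic markers the sums were 83.6 to 121 and 100 to 112 CPM. The 4 smooth muscle markers ranged wider, from 78.9 to 501 and from 201 to 407 CPM. The erythroid sums were 5.88 to 43.4 CPM in FDG+ and 6.07 to 61.8 CPM in FDG- libraries, and the cardiac ones 11.75 to 40.8 and 11.9 to 41.3 CPM. Pou5f1 (pluripotent cells), Afp and Ttr (endoderm), and Sox1 and Neurog2 (neural cells) had no read in any of the 6 libraries. A count of 0 allows at most 3 counts, which is 0.184 to 0.310 CPM by library. Other markers of these classes had reads. Their sums were 0 to 0.304 and 0.0893 to 0.700 CPM (pluripotent), 0.576 to 0.912 and 0.804 to 1.13 CPM (endoderm), and 3.96 to 7.17 and 3.94 to 5.64 CPM (neural).

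Over the 3 pairs no gene passed the test between FDG+ and FDG- cells. EdgeR's quasi-likelihood test with the replicate number as a block called 0 of 12630 genes (0% called), with 158 genes (1.25%) at an unadjusted p under 0.05, 117 of them higher and 41 lower in FDG+ cells. DESeq2 with the same block called 0 and had 150 at that p. The median absolute difference was 0.10 log2 and the median standard error 0.19. For 9622 genes (76.2%) the 95% interval of the difference lay within a 2-fold change in either direction, and for the others larger differences could not be judged. The spread behind these tests and intervals came from all 9 HEI libraries, ENG-FDG+ included. They are therefore not bounds set by the 3 pairs alone. In 1676 genes (13.3%) FDG+ was higher in 3 of 3 pairs and in 2153 (17.0%) it was lower in 3 of 3. Only with the 6 ENG+ libraries fitted alone was 1 gene called, the maternally expressed imprinted lncRNA Meg3 (log2 0.89 ± 0.10, adjusted p = 0.0376). That edgeR fit had 893 of 12343 genes at an unadjusted p under 0.05.

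The endothelial genes Cdh5, Kdr, Tek and Pecam1, and also Kit and Itga2b, were close in both fractions over the 3 pairs. Runx1 and other blood transcription factors, which varied more between pairs, are given below. Cdh5, the adherens junction cadherin of endothelium, stood at 2375, 1534 and 1647 CPM in FDG+ and 2776, 1515 and 1587 CPM in FDG- cells (log2 -0.06 ± 0.17, 95% interval -0.46 to 0.34). Kdr, the VEGF receptor FLK1, stood at 757, 1051 and 1010 against 872, 966 and 970 CPM (-0.01 ± 0.12, -0.29 to 0.27). Tek, which encodes TIE2, stood at 509, 901 and 807 against 574, 855 and 788 CPM (-0.03 ± 0.12, -0.31 to 0.25). In these 3 genes FDG+ was lower in replicate 1 and slightly higher in replicates 2 and 3, and the groups overlapped. Pecam1, an endothelial adhesion receptor, differed by -0.11 ± 0.11 log2 (-0.36 to 0.14). Kit, the stem cell factor receptor, stood at 74.6, 151 and 147 against 80.3, 138 and 135 CPM (0.05 ± 0.15, -0.29 to 0.39). Itga2b, which encodes CD41, was present in all 6 libraries at 77.9, 44.2 and 40.0 against 74.3, 38.3 and 36.5 CPM (0.13 ± 0.16, -0.25 to 0.51), slightly higher in FDG+ in 3 of 3 pairs. None of these differences passed the test.

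**Figure D1:**
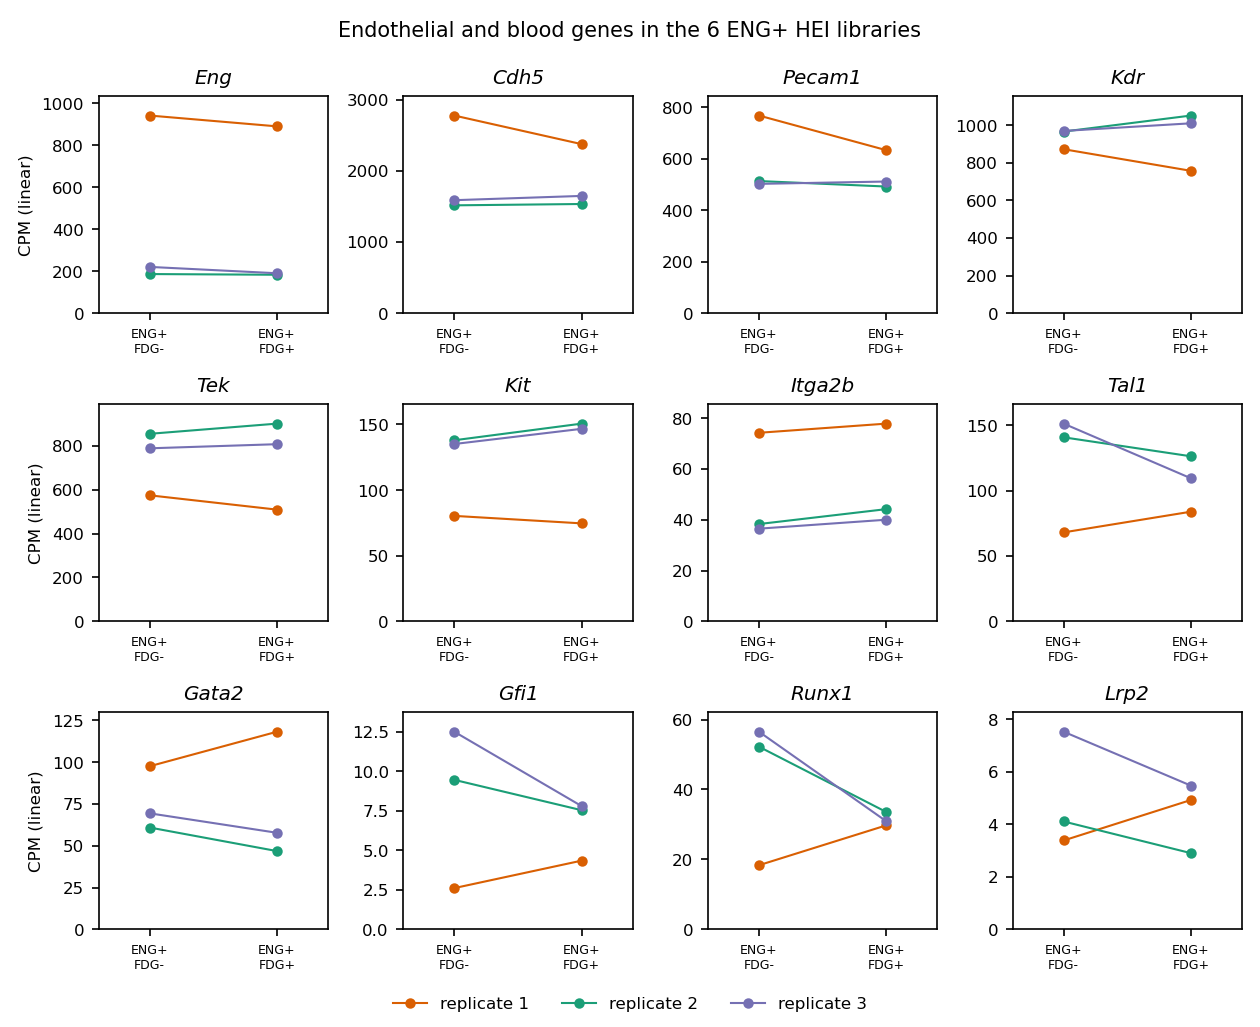
Level in CPM (linear axis from 0) of 12 endothelial and blood genes in the 6 ENG+ HEI libraries; each line joins the FDG- and FDG+ library of 1 replicate. The lines of Cdh5, Pecam1, Kdr and Tek go down in replicate 1 and tilt less in replicates 2 and 3, and Eng goes slightly down in each. Those of Runx1, Gfi1, Gata2 and Tal1 go up in replicate 1 and down in replicates 2 and 3. In replicate 1 the log2 difference was -0.28 for Pecam1 and 0.28 for Gata2.

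Blood transcription factors did not move the same way in all pairs. Runx1 stood at 29.8, 33.5 and 30.9 CPM in FDG+ and at 18.3, 52.2 and 56.5 CPM in FDG- replicates 1 to 3. The FDG+ level thus hardly varied, and the FDG- level lay below it in replicate 1 and above it in replicates 2 and 3. The log2 difference over the pairs was -0.31 ± 0.27 (-0.94 to 0.31, adjusted p = 1). Gfi1, a repressor that RUNX1 acts through when endothelial genes are silenced, stood at 4.35, 7.54 and 7.80 against 2.61, 9.46 and 12.5 CPM (-0.17 ± 0.32). Gata2, a factor of blood stem and progenitor cells, stood at 118, 46.8 and 57.7 against 97.5, 60.9 and 69.4 CPM (-0.13 ± 0.16). Tal1, a helix-loop-helix factor required for all blood lineages, stood at 83.9, 126 and 109 against 68.0, 141 and 151 CPM (-0.08 ± 0.22). All 4 were higher in FDG+ in replicate 1 and lower in replicates 2 and 3. Lrp2, the endocytic receptor named in the study's title, was at the edge of what these libraries resolve: 4.93, 2.90 and 5.47 against 3.38, 4.11 and 7.52 CPM, a difference of -0.21 ± 0.43 log2 with a 95% interval of -1.19 to 0.78. Its level in ENG-FDG+ cells was 44.7, 11.6 and 22.6 CPM, above both ENG+ fractions in 3 of 3 replicates.

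In replicates 2 and 3 alone the fractions differed in a limited set of genes. With these replicates edgeR called 379 of 12464 genes, 243 higher (1.95% called) and 136 lower (1.09% called) in FDG+ cells, with 2014 at an unadjusted p under 0.05. DESeq2 called 69 and 34. Of the 378 that were also tested over the 3 pairs, 102 changed by more than 1.5-fold and 27 by more than 2-fold; the median difference was 0.42 log2 among the higher and -0.36 among the lower genes. These counts rest on every one of the 4 libraries: leaving out FDG+ replicate 2, FDG+ replicate 3, FDG- replicate 2 or FDG- replicate 3 left 9, 16, 92 and 148 higher and 2, 6, 41 and 94 lower genes. Without the block 33 higher and 6 lower genes were called.

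Replicate 1 did not show the same differences. Of the 378 genes, 150 (39.7%) had the same direction there. The 242 higher genes had a median of -0.06 log2 in replicate 1, with 107 higher and 135 lower, and the 136 lower genes a median of 0.09, with 43 lower and 93 higher. Across the 12630 genes the within-pair differences of replicates 2 and 3 correlated at 0.27, those of replicates 1 and 2 at -0.04 and those of replicates 1 and 3 at 0.01; genes in a pair share libraries and depth. A test of the difference between replicate 1 and replicates 2 and 3 in the FDG effect called 355 genes, 212 with a higher effect in replicate 1 (1.68% called) and 143 with a lower one (1.13% called), and 132 of the 378 were among them. The values of replicates 2 and 3 that picked the 378 also enter this test. That choice favours an effect difference of the opposite sign, here and for the called genes below, so the overlap is a description only. Replicate 1 gives this test 1 library per fraction, so its spread comes from replicates 2 and 3, which may be technical, and it was set up with replicate 1 already known to stand apart. Without FDG+ replicate 2 this count was 133, and without FDG+ replicate 3 it was 208. Of 31 named genes among the 355, 13 kept the call whichever of these 4 libraries was left out: Malat1, Neil3, Cd93, Mrc1, Dab2, Top2a and Mki67 with a lower effect in replicate 1, and Runx1, Myb, Hand1, Itgb3, Gpr56 and Lyz2 with a higher one. Rn45s and ribosomal protein shares, which set replicate 1 apart, were higher in its FDG+ than in its FDG- library, and their part in these results was not tested. Nothing in the labels says what distinguishes replicate 1.

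**Figure D2:**
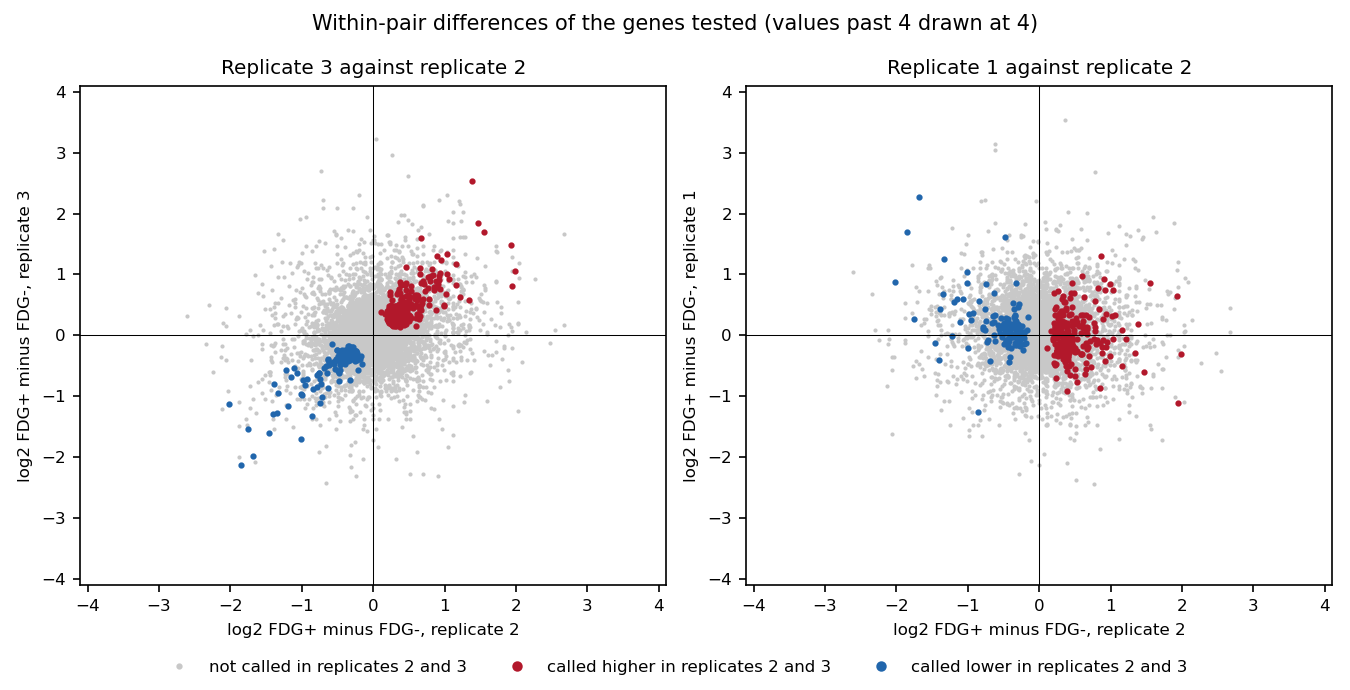
Within-pair log2 difference (FDG+ minus FDG-, prior count 2) of each gene tested, replicate 3 (left) and replicate 1 (right) plotted against replicate 2, with the genes called in replicates 2 and 3 in colour. The coloured genes lie on the diagonal at left, where both axes entered the call, and scatter around 0 in replicate 1, with a median of -0.06 for the higher and 0.09 for the lower genes.

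Among 50 named genes called in replicates 2 and 3, 5 kept the call whichever of the 4 libraries was left out: Malat1, Meg3 and Neil3, higher in FDG+ cells, and Runx1 and Hand1, lower. With 1 library left out its fraction has a single library, assumed to vary like the other groups. The rule for naming genes took none over the 3 pairs, and its use in replicates 2 and 3 was chosen after the values were seen. Runx1 (chr16:92601466-92826149, minus strand) stood lower in FDG+ cells, at -0.73 ± 0.09 log2 (adjusted p = 0.000109). Its effect in replicate 1 differed from this by 1.45 ± 0.15 log2 (adjusted p = 3.76e-05). Hand1, a helix-loop-helix factor of cardiac and extraembryonic mesoderm, stood at 107, 24.6 and 27.5 CPM in FDG+ and 66.5, 63.0 and 66.5 CPM in FDG- cells. Its FDG- level was even across replicates, and the FDG+ level lay above it in replicate 1 and under it in the others (-1.30 ± 0.13 log2 in replicates 2 and 3, adjusted p = 2.65e-05). The effect differed by 2.0 ± 0.19 log2 between replicate 1 and the others (adjusted p = 0.000154).

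Malat1, an abundant lncRNA of nuclear speckles, stood at 2319, 12521 and 10621 CPM in FDG+ and at 2186, 5623 and 4734 CPM in FDG- cells. It was about level in replicate 1 (0.09 log2) and 1.15 and 1.17 log2 higher in FDG+ in replicates 2 and 3 (1.18 ± 0.07, adjusted p = 9.78e-10), and the effects differed (-1.08 ± 0.12, adjusted p = 4.12e-05). Meg3 stood at 86.0, 35.5 and 46.5 against 50.2, 19.9 and 21.9 CPM. It was higher in FDG+ by 0.78, 0.83 and 1.08 log2 in replicates 1 to 3 (0.99 ± 0.12 in replicates 2 and 3, adjusted p = 0.000109), and a difference between replicate 1 and the others was not detected (-0.19 ± 0.16, adjusted p = 0.613). Over the 3 pairs, where the 9 HEI libraries share the spread, Meg3 gave 0.94 ± 0.53 log2 (-0.28 to 2.15, adjusted p = 1); its ENG-FDG+ levels were 278, 20.5 and 20.9 CPM. Neil3, a DNA glycosylase that removes oxidised bases, stood at 16.4, 79.1 and 71.5 against 18.7, 43.1 and 38.6 CPM. It was higher by 0.90 ± 0.09 log2 in replicates 2 and 3 (adjusted p = 1.34e-05), and that effect was not shared by replicate 1 (-1.07 ± 0.18, adjusted p = 0.00262).

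**Figure D3:**
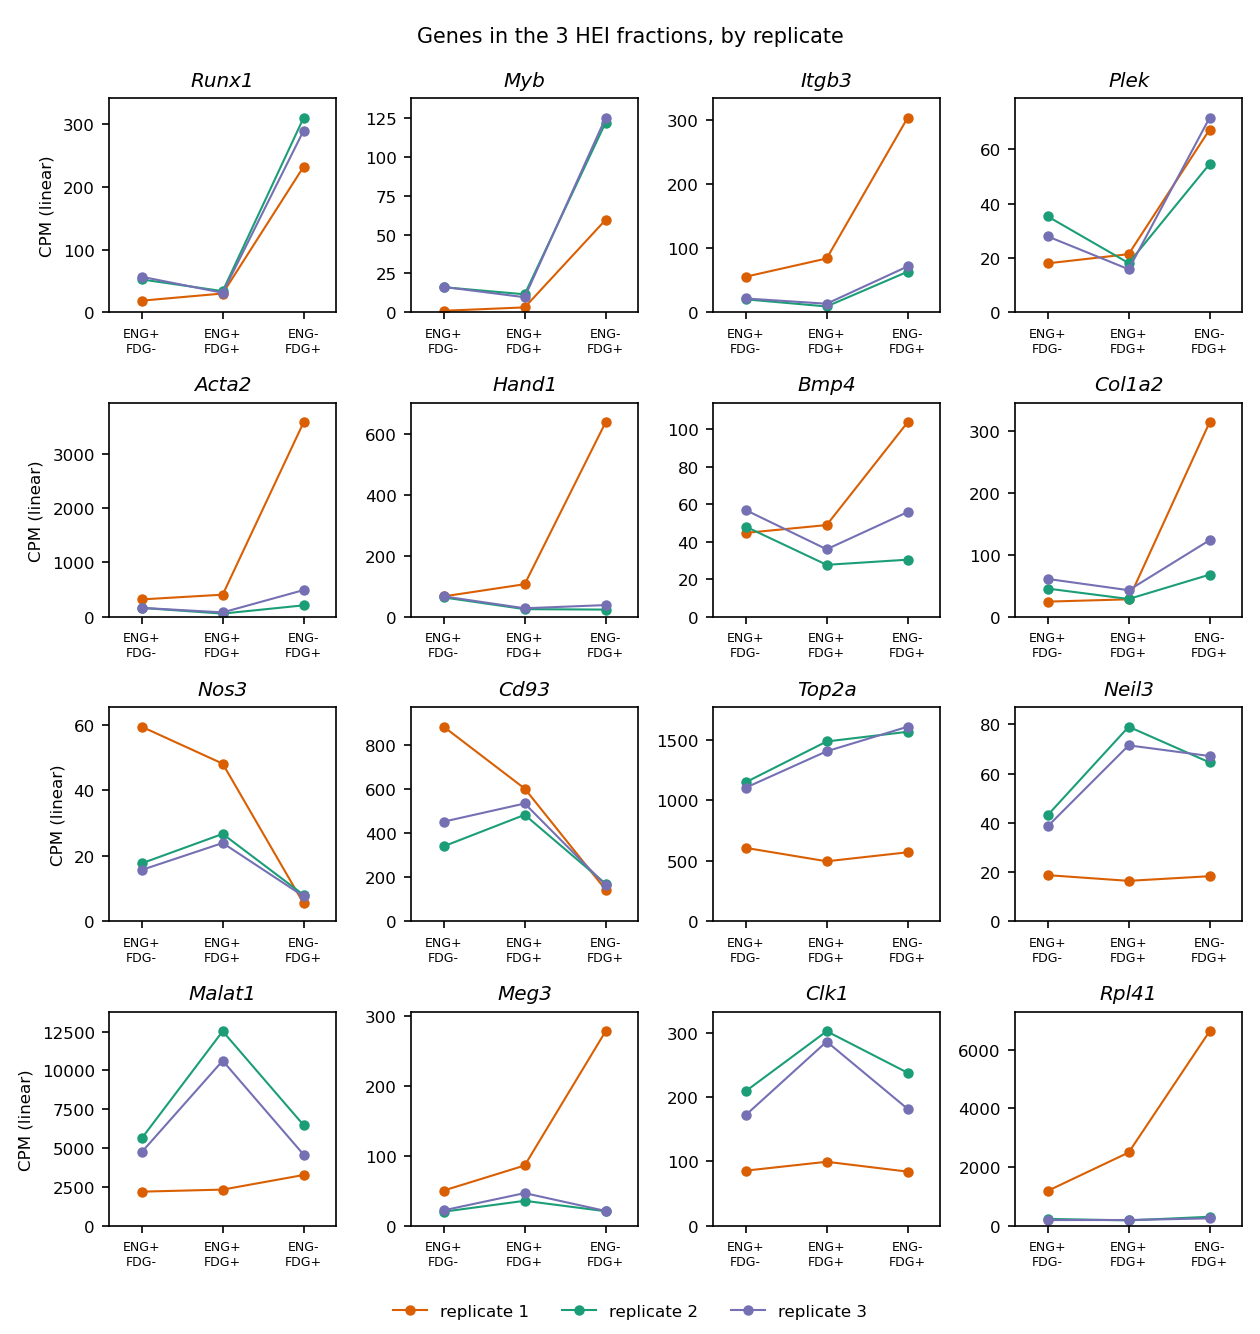
Level in CPM (linear axes from 0) of 16 genes in the 3 HEI fractions of the -8/P line, with a line for each replicate. Runx1, Myb, Itgb3 and Plek are highest in ENG-FDG+ cells, and from ENG+FDG- to ENG+FDG+ they go up in replicate 1 and down in replicates 2 and 3; Meg3 goes up in all 3.

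A few other blood genes were lower in FDG+ cells in replicates 2 and 3, and most were not called. Of 22 haematopoietic transcription factors tested, 3 were lower in FDG+ cells in replicates 2 and 3 (Runx1, Myb and Tal1) and none was higher, and 4 had a higher effect in replicate 1 (those 3 and Gata2). Of all genes, 1.09% were called lower and 1.95% higher in those replicates. A higher effect in replicate 1 was called for 1.68% and a lower one for 1.13%, and every list count below stands against these shares. Medians of the list in the 3 pairs were 0.11, -0.14 and -0.19 log2, against 0.00, -0.03 and -0.02 for all genes tested, and 13, 7 and 4 of the 22 were higher in FDG+. Myb, a factor of definitive blood progenitors, stood at 3.07, 11.5 and 9.62 CPM in FDG+ and 0.890, 16.1 and 16.3 CPM in FDG- cells. The lowest of the 6 was thus the FDG- library of replicate 1 and the highest were the other FDG- libraries (replicates 2 and 3: -0.59 ± 0.14, adjusted p = 0.0222; effect difference 2.39 ± 0.39, adjusted p = 0.00205). Its call in replicates 2 and 3 was lost without any 1 of the 4 libraries, while the effect difference kept its call. Tal1 was lower, at -0.29 ± 0.08 log2 (adjusted p = 0.0443), a call lost without FDG+ replicate 2, FDG+ replicate 3 or FDG- replicate 3. In ENG-FDG+ cells Runx1 stood at 232, 310 and 290 CPM and Myb at 59.5, 122 and 125 CPM, far above both ENG+ fractions.

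Of 7 megakaryocyte genes, 2 were lower in replicates 2 and 3 (1.09% of all genes) and none was higher (1.95% of all genes). Itgb3, the beta3 integrin that pairs with CD41, stood at 83.9, 8.89 and 13.2 CPM in FDG+ and 55.4, 20.0006 and 21.3 CPM in FDG- cells (-0.89 ± 0.14, adjusted p = 0.00141), and without FDG+ replicate 2 the call was lost (adjusted p = 0.124). Plek, the platelet protein pleckstrin, stood at 21.4, 18.1 and 15.8 against 18.0, 35.3 and 27.9 CPM (-0.87 ± 0.17, adjusted p = 0.0132); it overlaps another gene on the genome, and no strand setting is given. Both had the opposite sign in replicate 1, by a difference of 1.51 ± 0.17 and 1.15 ± 0.27 log2. Itga2b, whose product pairs with that of Itgb3, was not called and was slightly higher in FDG+ in 3 of 3 pairs, and Kit was not called either. Among 17 blood surface and signalling genes 1 was called, Arhgdib, a GDP-dissociation inhibitor of blood cells, at -0.25 ± 0.06 log2. Among 8 erythroid genes none was called in either direction. Of 6 myeloid genes, 1 was called higher (Mrc1) and 1 lower (Lyz2, which rests on few reads). The call of Plek and its effect difference were lost without FDG+ replicate 2 or FDG+ replicate 3, and the call of Arhgdib without any 1 of the 4 libraries. The summed haematopoietic markers were 121 CPM (FDG+) against 100 (FDG-) in replicate 1 and 92.5 against 111 and 83.6 against 112 in replicates 2 and 3. In bulk RNA fewer cells of a type and less RNA per cell cannot be told apart.

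Mesenchymal genes divided along the same line. Among 16 smooth muscle and mesenchyme genes tested, 13 were higher in FDG+ in replicate 1 and 4 and 2 in replicates 2 and 3, with medians of 0.30, -0.67 and -0.71 log2. Only 1 was called in replicates 2 and 3, Col1a2, a fibrillar collagen chain, at 28.0, 28.5 and 42.7 CPM in FDG+ against 24.3, 45.4 and 61.0 CPM in FDG- (-0.57 ± 0.11, adjusted p = 0.0051). Acta2, smooth muscle actin, stood at 404, 55.7 and 77.8 against 317, 160 and 162 CPM, named after its values were seen. The difference of -1.29 ± 0.45 log2 in replicates 2 and 3 did not pass the test (adjusted p = 0.391). Cnn1, which encodes calponin, was not called in replicates 2 and 3 either (adjusted p = 0.0931), but its effect differed between replicate 1 and the others (1.71 ± 0.39, adjusted p = 0.0206). The call of Col1a2 was lost without FDG+ replicate 2, FDG- replicate 2 or FDG+ replicate 3, and the effect difference of Cnn1 without any of the same 3. The summed smooth muscle markers were 501 against 407 CPM in replicate 1, 78.9 against 201 in replicate 2 and 107 against 201 in replicate 3. In ENG-FDG+ cells they reached 3998, 251 and 560 CPM, so the third fraction also differed between replicates.

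Among 11 paraxial and lateral mesoderm genes, 3 were lower in replicates 2 and 3 (1.09% of all genes): Hand1, Bmp4 and Rspo3. Bmp4, the BMP ligand that induces ventral mesoderm, stood at 48.9, 27.7 and 36.0 CPM in FDG+ and 44.7, 48.0 and 56.9 CPM in FDG- cells (-0.71 ± 0.13, adjusted p = 0.00526; effect difference 0.86 ± 0.20). Rspo3, a secreted amplifier of Wnt signalling, stood at 105, 167 and 188 against 107, 238 and 246 CPM. FDG+ was lower in 3 of 3 pairs, at -0.03 log2 in replicate 1 (replicates 2 and 3: -0.43 ± 0.06, adjusted p = 0.000646). In the BMP and TGF-beta pathway, to which Endoglin belongs, 4 of 26 genes were lower (1.09% of all genes) and 1 was higher (1.95% of all genes) in replicates 2 and 3. Smad6, an inhibitory SMAD, stood at -0.37 ± 0.09 log2 and Bmper, a secreted BMP modulator, at -0.40 ± 0.10, while Tgfbr3, the co-receptor betaglycan, was higher by 0.31 ± 0.08. The signalling receptors Acvrl1, Tgfbr1, Tgfbr2 and Bmpr2 were not called. Calls of Smad6, Bmper and Tgfbr3 were lost without any 1 of the 4 libraries, and that of Bmp4 without FDG+ replicate 2 or FDG+ replicate 3, as was its effect difference. Rspo3 lost its call without FDG+ replicate 2.

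Endothelial receptor and junction genes were mostly lower in FDG+ in replicate 1 and mostly higher in replicates 2 and 3. Of 18 endothelial receptors, 1 was higher in FDG+ in replicate 1, 15 in replicate 2 and 11 in replicate 3, with medians of -0.23, 0.14 and 0.06 log2. By the test of the effect difference, 4 of the 18 were lower in replicate 1 (Ptprb, Ptprm, Aplnr and Nos3), against 1.13% of all genes. Nos3, the endothelial nitric oxide synthase, and Flt4, the VEGF-C receptor, were called higher in replicates 2 and 3, as were 1.95% of all genes. Nos3 stood at 48.2, 26.7 and 23.9 CPM in FDG+ against 59.5, 17.7 and 15.7 CPM in FDG- (0.62 ± 0.13, adjusted p = 0.0146), and its effect in replicate 1 was lower by a tested difference of -0.91 ± 0.18 log2 (adjusted p = 0.0103); it overlaps a gene on the other strand. For junction and adhesion genes the medians were -0.21, 0.16 and 0.10 log2, with 4, 14 and 14 of 19 higher in FDG+, and 1 of 19 was called, the surface lectin Cd93, at 602, 482 and 534 against 882, 340 and 451 CPM (0.39 ± 0.08, adjusted p = 0.0225; effect difference -0.92 ± 0.14, adjusted p = 0.00367). In both genes the FDG- library was the higher of the pair in replicate 1 and the lower in the others. Egfl7, a secreted endothelial factor of the same list, went the other way: its within-pair differences were 0.67, 0.25 and 0.10 log2, and its effect was higher in replicate 1 (0.49 ± 0.11, adjusted p = 0.0249). Among 19 endothelial transcription factors the medians were -0.11, 0.03 and 0.01 log2, with 6, 10 and 10 higher in FDG+, and the only call was a lower one, Tal1. The arterial receptor gene Notch4 was higher by 0.55 ± 0.15 log2, the only call among 20 arterial and Notch genes. Mrc1, the mannose receptor found on macrophages and sinusoidal endothelium, stood at 44.9, 129 and 107 against 61.4, 81.8 and 78.4 CPM (0.57 ± 0.08, adjusted p = 0.000362). Calls of Nos3 and Notch4 were lost without any 1 of the 4 libraries, those of Cd93 and Flt4 without FDG+ replicate 2, FDG- replicate 2 or FDG+ replicate 3, and that of Mrc1 without FDG+ replicate 2. The effect difference of Nos3 was lost without FDG+ replicate 2.

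**Figure D4:**
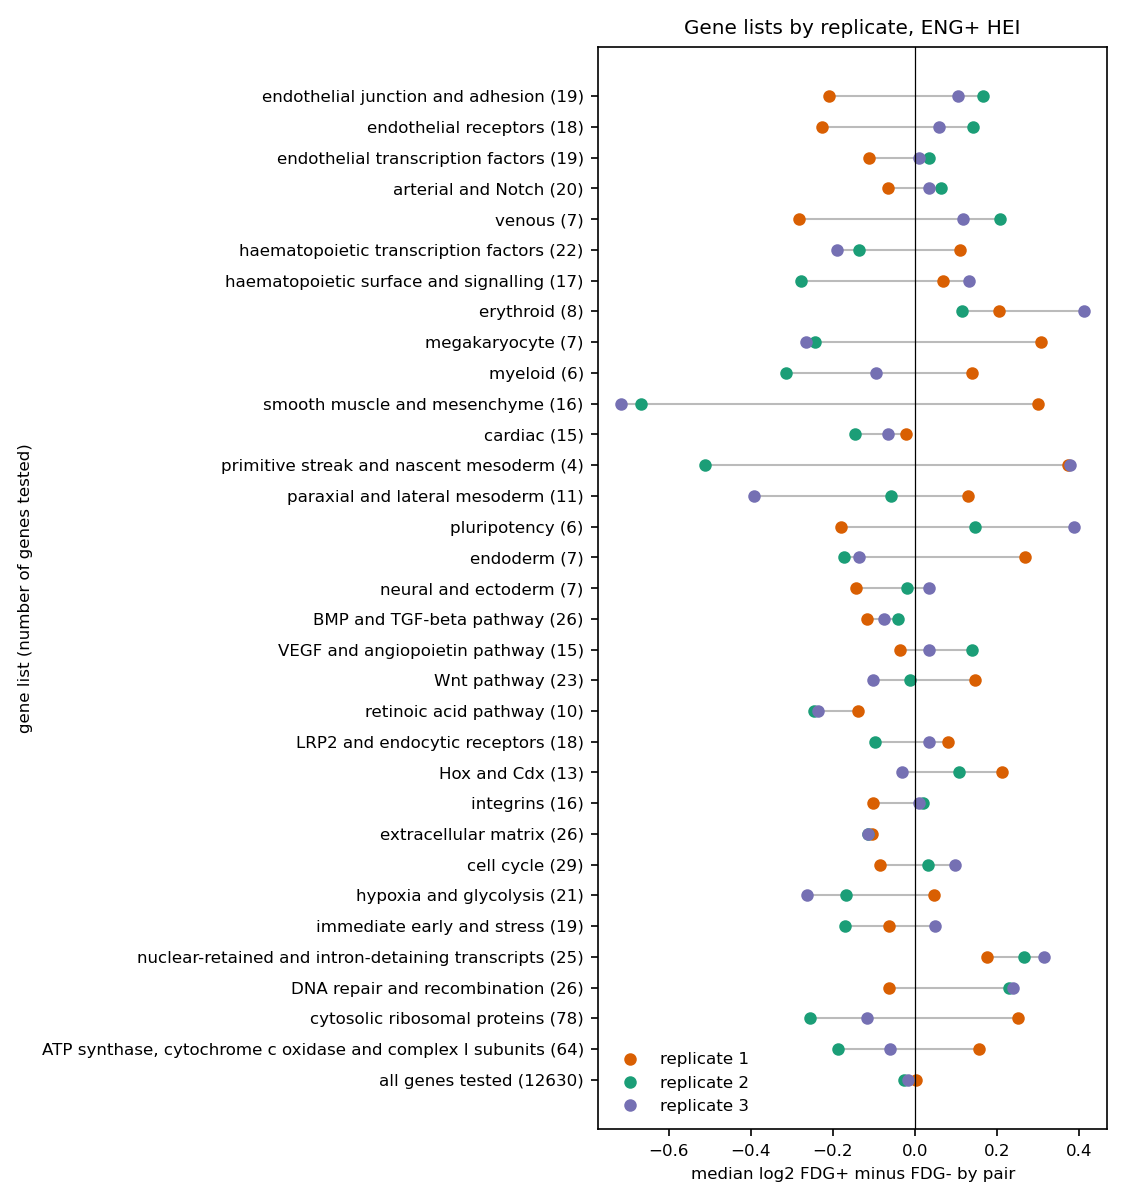
Median log2 difference (FDG+ minus FDG-) of each gene list in each same-numbered pair; numbers of genes tested stand in brackets and the bottom row is all genes. Smooth muscle and mesenchyme lies at 0.30 in replicate 1 and at -0.67 and -0.71 in replicates 2 and 3, while the nuclear-retained list lies at 0.18, 0.27 and 0.31.

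A minority of cell cycle genes differed in replicates 2 and 3. Over the list of 29 the medians were -0.09, 0.03 and 0.10 log2 in replicates 1 to 3, with 8, 16 and 16 higher in FDG+. Of the 29, 5 were called higher (Mki67, Top2a, Ccnb1, Aurkb and Bub1) and 1 lower, against 1.95% and 1.09% of all genes. Each of these 5 had a lower effect in replicate 1 by the test, which the values behind their calls also enter. Top2a, the topoisomerase of mitotic chromosomes, stood at 495, 1485 and 1404 CPM in FDG+ against 605, 1148 and 1103 CPM in FDG- (0.38 ± 0.06, adjusted p = 0.000991). Mki67, which encodes Ki-67, stood at 635, 1052 and 1095 against 756, 810 and 907 CPM (0.35 ± 0.06, adjusted p = 0.00225). In both genes the effect differed between replicate 1 and the others (-0.65 ± 0.10 and -0.58 ± 0.10). Aurkb, a mitotic kinase, was higher by 0.44 ± 0.08 log2, and Ccnd2, a cyclin of the first gap phase, was lower (-0.52 ± 0.12). The listed replication helicase genes of the Mcm family were not called in either direction. The call of Top2a was lost without FDG+ replicate 2 or FDG+ replicate 3, that of Aurkb without FDG+ replicate 2, and those of Mki67 and Ccnd2 without either of these or FDG- replicate 2.

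A list of 25 nuclear-retained and intron-detaining transcripts, drawn up after the values of its members were seen, had the most calls for a higher level among the lists; its counts are a description and support nothing. In replicates 2 and 3, 13 of the 25 were higher in FDG+ (1.95% of all genes) and none was lower, and 18 were higher in 3 of 3 pairs, where all genes gave 13.3%. Medians were 0.18, 0.27 and 0.31 log2 in replicates 1 to 3. Clk1, a kinase of splicing factors whose own transcript is held in the nucleus with unspliced introns, stood at 99.3, 302 and 286 CPM in FDG+ against 85.5, 209 and 172 CPM in FDG- (0.66 ± 0.07 in replicates 2 and 3, adjusted p = 2.55e-05). Ccnl2, a cyclin of nuclear speckles, stood at 107, 109 and 107 against 81.4, 86.6 and 76.0 CPM. Its groups did not overlap, and neither did those of Msh5, a meiotic mismatch repair homologue, at 12.7, 10.6 and 11.9 against 7.48, 5.54 and 5.95 CPM (0.99 ± 0.21, adjusted p = 0.011). Over the 3 pairs Ccnl2 gave 0.41 ± 0.09 log2 (0.20 to 0.61) and Msh5 0.89 ± 0.28 (0.24 to 1.53), both with an adjusted p of 1. Of 26 DNA repair and recombination genes, a list also chosen afterwards, 8 were higher in replicates 2 and 3 (1.95% of all genes) and none was lower. Their medians were -0.06, 0.23 and 0.24 log2. Brca1, of homologous recombination, stood at 71.2, 155 and 145 against 77.5, 124 and 116 CPM (0.34 ± 0.07, adjusted p = 0.00752). Clk1 kept its call whichever library was left out, and Ccnl2 and Brca1 lost theirs without FDG+ replicate 2, FDG+ replicate 3 or FDG- replicate 3.

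Ribosomal protein genes and short transcripts shifted up in FDG+ in replicate 1 and down in replicate 2, with smaller shifts in replicate 3. Of 78 cytosolic ribosomal protein genes, 71 were higher in FDG+ in replicate 1, and 3 and 7 in replicates 2 and 3, with medians of 0.25, -0.26 and -0.12 log2; these genes have near-identical copies that counting may split. For 43 of the 78 the effect was higher in replicate 1 by the test (1.68% of all genes), for none lower, and 7 were called lower in replicates 2 and 3 (1.09% of all genes). Rpl41 stood at 2492, 177 and 190 CPM in FDG+ against 1184, 229 and 188 CPM in FDG- (effect difference 1.25 ± 0.14, adjusted p = 7.90e-05). The count of 71 in replicate 1 was the same with RLE size factors and with library totals alone, and in replicate 3 it was 15 with totals alone. Subunits of ATP synthase, cytochrome c oxidase and complex I followed, with 50, 6 and 23 of 64 higher and 6 effect differences called. By annotated transcript length, the shortest of 5 equal bins of the genes tested (up to 2 kb) had medians of 0.09, -0.09 and -0.02 log2 in replicates 1 to 3, and the longest (from 5.38 kb) -0.05, 0.02 and -0.00. Effects higher in replicate 1 were called for 114 genes of the shortest and 19 of the longest bin, lower ones for 9 and 56. The lists differed in length too, with a median of 1.1 kb for ribosomal protein genes, 4.93 kb for the nuclear-retained list and 3.46 kb for all genes. The part of transcript length in the differences above was not tested.

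**Figure D5:**
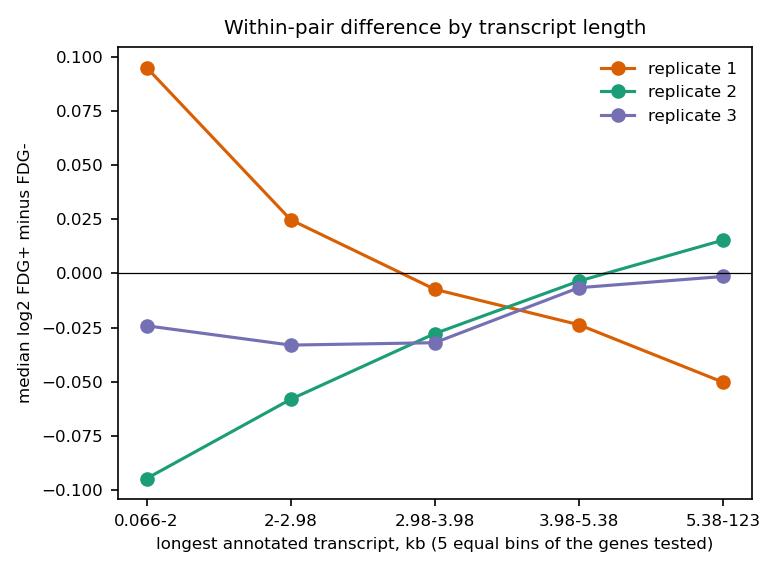
Median within-pair log2 difference (FDG+ minus FDG-) in 5 equal bins of the genes tested, by the length of the longest annotated transcript in kb. The line of replicate 1 runs from 0.09 to -0.05, that of replicate 2 from -0.09 to 0.02, and that of replicate 3 stays between -0.03 and 0.00.

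Other lists are given with their calls in replicates 2 and 3, where 1.09% of all genes were called lower and 1.95% higher. Glycolysis and hypoxia genes had 3 of 21 called lower and none higher: Gapdh (-0.27 ± 0.06, adjusted p = 0.0116), the glucose transporter Slc2a3 (-0.27 ± 0.06) and Egln3, an oxygen-sensing prolyl hydroxylase (-0.36 ± 0.10). Integrins and extracellular matrix each had 3 called lower, of 16 and 26. Those were Itgb3, Itga3 and Itga4, and Col1a2, the proteoglycan Vcan and the laminin chain Lamc1; 10 of the 26 matrix genes were lower in 3 of 3 pairs, where all genes gave 17.0%. Fosb, an immediate early factor, stood at 85.5, 105 and 86.2 CPM in FDG+ against 76.9, 76.2 and 51.4 CPM in FDG- (0.62 ± 0.08, adjusted p = 0.000401), higher in 3 of 3 pairs but the only call among 19 immediate early and stress genes. In the LRP2 and endocytic receptor list 2 of 18 were higher, Dab2, a clathrin adaptor of LDL receptor family members, at 0.25 ± 0.07 log2 and the scavenger receptor Stab1 at 0.50 ± 0.14; Lrp2 was not. No call was made among 10 retinoic acid pathway, 6 pluripotency, 7 endoderm and 7 neural genes, and 1 was made among 23 Wnt genes, which was Rspo3. No call named in this group of pathways was kept under all 4 omissions of a library, and that of Fosb was lost only without FDG+ replicate 3. Itga4 and Stab1 overlap other genes, which leaves their counts uncertain. Mitochondrially encoded genes were not analysed here.

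By the naming rule, the 10 largest rises in replicates 2 and 3 were, beside Malat1, Meg3, Neil3 and Msh5, those of Lrrtm2, Casp4, Ankle1, Slc26a10, Ankrd33b and B4galnt1, at 0.90 to 1.22 log2. Lrrtm2, a synaptic adhesion protein, was higher in 3 of 3 pairs (1.22 ± 0.21, adjusted p = 0.00294). Slc26a10 and B4galnt1 overlap each other on opposite strands and Lrrtm2 lies within another gene, so their counts are uncertain without a strand setting. Among the largest falls, at -1.30 to -0.81 log2, were those of Hand1, Wisp1, Fat3, Gpr56, Itgb3, Plek, Krt19, Gucy1a3 and Gfra2. Gpr56, an adhesion G-protein-coupled receptor of blood stem cells, stood at 21.6, 5.22 and 5.17 CPM in FDG+ against 11.99, 8.84 and 11.4 CPM in FDG-, with a tested effect difference of 1.80 ± 0.24 (adjusted p = 0.000312). Of these genes, Fat3 alone was lower in FDG+ in 3 of 3 pairs. The call of each gene named here, apart from Malat1, Meg3, Neil3 and Hand1, was lost without FDG+ replicate 2.

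Levels in the third fraction were set beside these calls. Of the 136 genes lower in FDG+ in replicates 2 and 3, the mean ENG-FDG+ level of those replicates was above both ENG+ fractions for 75 (55.1%), between them for 31 and below both for 30. Of all 6930 genes with a lower FDG+ mean in these replicates, 52.6% had their ENG-FDG+ level above both, so that share among the called genes was near the background. Between the fractions lay 22.8% of the called and 15.2% of all such genes, and below both 22.1% and 32.2%. Runx1, Myb, Itgb3, Plek and Gpr56 were among the 75. Of the 242 higher genes the ENG-FDG+ level was above both for 79 (32.6%), between for 84 (34.7%) and below both for 79 (32.6%). Of all 5700 genes with a higher FDG+ mean, 41.3% lay above both, 17.9% between and 40.8% below both. Called genes were picked for the difference between the ENG+ fractions, and its part in these shares was not tested.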

How the data were processed

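The deposited values are raw counts of reads by gene symbol. Amplification of the RNA with a Nugen kit preceded library construction, per the labels' protocols. Per the submitters' processing notes, the authors used the mm10 genome and the tools HTSeq 0.6.1 and STAR 2.4.0; their roles, annotation and strand setting were not given in the sources used here. Of 24061 lines, 27 held a calendar date in place of a symbol (0.153% to 0.349% of counts by library over all 15) and were left out. Totals of the 6 ENG+ libraries were 9673396 to 16337785 counts, so a count of 0 allows up to 0.310 CPM in the shallowest; this covers counting error only.

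Counts of the 9 HEI libraries were filtered with filterByExpr (12630 genes left), scaled with TMM factors and fitted with edgeR 4.0.16 (limma 3.58.1, R 4.3.3) by robust quasi-likelihood, with fraction means and the replicate number as a block. Adjusted p-values are Benjamini-Hochberg values of edgeR's test over all genes tested, unless DESeq2 1.42.0 is named, with a threshold of 0.05. Samples were paired by replicate number. Deviations from the group means of same-numbered ENG+ libraries correlated at 0.90, 0.74 and 0.75. Replicates 2 and 3 correlated across numbers almost as well (0.71 and 0.70), and replicate 1 correlated with the others at -0.79 to -0.82. Because replicate 1 stood apart from both, these values cannot show that replicates 2 and 3 are each paired by number. Standard errors are those implied by the test statistic. The effect difference is the interaction of the FDG effect with replicate 1 against replicates 2 and 3. Levels are CPM after TMM scaling, and within-pair log2 differences used a prior count of 2.

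Of the genes tested, 12547 (99.3%) had a transcript length in GENCODE M21 (GRCm38, which is mm10), directly or through an older symbol; coordinates come from there. The members, the 29 gene lists and the tests were chosen with earlier results of these data known, and 4 lists (nuclear-retained, DNA repair, ribosomal protein, ATP synthase with respiratory chain) after seeing the values of single genes. The naming rule takes, among called genes with the same direction in 3 of 3 pairs and at least 10 CPM in the higher group, the 10 largest rises and falls, plus 12 fixed genes and up to 4 called members of each list or the 2 most abundant. In replicates 2 and 3 it asked for the same direction in both pairs. A gene the rule took is not reported here. Other genes were chosen after their values were seen. The fits were tested on simulated counts. Alternatives were RLE size factors, other filters on low counts, no block, other sets of libraries, DESeq2, a test against a fold of 1.5 and each library left out.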

Additional observations from a re-analysis of the deposited data

Results flagged for a closer look

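The FDG effect differed by the test between replicate 1 and replicates 2 and 3 in 355 genes (edgeR interaction, adjusted p under 0.05), and 31 of the named genes were among them. Replicate 1 enters this test with 1 library per fraction. Many named genes were picked by their values in replicates 2 and 3, which also enter it. Values are log2 differences between the effect in replicate 1 and that in replicates 2 and 3. Among blood and megakaryocyte genes the effect was higher in replicate 1 for Runx1 (1.45), Myb (2.39), Gata2 (0.60), Tal1 (0.61), Itgb3 (1.51), Plek (1.15), Gpr56 (1.80), Arhgdib (0.42) and Lyz2 (5.44). Mrc1, on the same myeloid list as Lyz2, had a lower effect there (-1.0). Lyz2, the lysozyme of macrophages, rests on few reads, with 0.119 CPM in the FDG- library of replicate 1 and at most 2.1 CPM in the other 5. For mesoderm, mesenchyme and integrin genes the values were 2.0 for Hand1, 0.80 for Col1a2, 0.86 for Bmp4, 0.42 for Rspo3 and 0.72 for Itga3. Of these genes, Hand1 alone kept the call whichever ENG+ library of replicates 2 and 3 was left out. Outside these groups, Wisp1 (1.55), Krt19 (1.22) and Gucy1a3 (1.46) also had a higher effect in replicate 1.

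Endothelial and scavenger receptor genes had a lower effect in replicate 1: Cd93 (-0.92), Nos3 (-0.91), Mrc1 (-1.0), Stab1 (-0.66), Dab2 (-0.72) and Tgfbr3 (-0.52). So did the proliferation genes Aurkb (-0.67), Top2a (-0.65) and Mki67 (-0.58), and Malat1 (-1.08), Neil3 (-1.07), Casp4 (-1.18), Slc26a10 (-0.99) and Ncam1 (-0.80). No cause was tested.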

How the results depend on the processing

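Over the 3 pairs the count of called genes stayed at 0 in both directions under RLE size factors, no filter, a filter of 5 CPM in 3 libraries, no replicate block (13 genes at an unadjusted p under 0.05), all 15 libraries, DESeq2, a fold of 1.5 and each library left out. With the 6 ENG+ libraries alone it was 1 higher, and in replicates 2 and 3 it was 243 higher and 136 lower. Alternatives for replicates 2 and 3 were chosen after seeing the data. There the counts of higher and lower genes were 365 and 295 with no filter, 33 and 6 with no replicate block, 69 and 34 with DESeq2, and 1 and 1 against a fold of 1.5. Leaving out 1 library gave 9 to 148 higher and 2 to 94 lower genes. The 355 effect differences became 626 with no filter and 133 to 468 with 1 library left out. Of 1151 alternative values for 72 named genes over the 3 pairs, 77 changed sign, none of them past the threshold, and of 499 values for the 50 named genes called in replicates 2 and 3 none changed sign and 254 missed the threshold. The cause was not tested. Precision is limited by 3 pairs and by the spread among the HEI libraries, ENG-FDG+ included. The biological coefficient of variation was 0.191 over all 9 and 0.0549 over those of replicates 2 and 3. Low counts limit single genes too: 2 to 24 reads for Lyz2 and 30 to 86 for Lrp2 in the 6 ENG+ libraries.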
